A study of Arabidopsis thaliana with 12 samples.

Results

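The core hypoxia response genes of Arabidopsis thaliana are a small set of genes whose transcripts accumulate when plant cells run short of oxygen. They were followed here by gene identifier as 10 genes, PCO1, PCO2, HRE2, LBD41, ADH1, PDC1, SUS1, SUS4, HB1 and ACO1 (AT2G19590), and all 10 were among the 21882 genes of the deposited table. All plants were cat2-2 seedlings, which lack functional catalase CAT2 and therefore clear photorespiratory H2O2 poorly, and no wild-type plants were part of the RNA sequencing. Seedlings grew in liquid medium in multiwell plates, 5 to a well, for 7 days, before the medium was exchanged for one with 10 µM pakerine, a synthetic sulfonamide, or with its solvent DMSO as the mock treatment. The DMSO and Pakerine groups were harvested after 4 further days with 16 h of light per day. The Stress and Stress + Pakerine groups received the same 4 days and then 2 days of photorespiratory stress in sealed plates with 24 h of light per day. Sealing, day length and the 2 days of extra age thus differ together, and their effects cannot be told apart. Each group was given as 3 replicate samples of 100 mg of leaf material, 12 libraries in total. For 6 of these the sample title and the treatment fields name different groups, so the group headings of the deposited table were used.

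Plant cells sense oxygen through the plant cysteine oxidases (PCOs), which use oxygen to oxidise a cysteine at the start of the group VII ethylene response factors (ERF-VIIs) and thereby mark these transcription factors for breakdown by the N-degron pathway. When oxygen falls, the ERF-VIIs persist and switch on genes for sucrose breakdown, ethanolic fermentation and haemoglobin, together with PCO1 and PCO2 themselves. These transcripts are widely used as markers of low oxygen, and some of them are also expressed in roots.

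The genome sequence upstream of the members was searched for a loose form of the hypoxia-responsive promoter element (HRPE), a site that ERF-VIIs bind. With 3 bases left free, a match to this form need not be an HRPE. The pattern was AAACCA, then any 3 bases, then GC, read on both strands. In the 500 bases before the annotated gene start in the RefSeq annotation of TAIR10.1, the source of all positions given, it was found in ADH1 and LBD41, 2 of the 10 members, against 1.65% of the same windows of 21028 genes of the table. The stretch around the ADH1 match is shown 5′ to 3′ along the gene, with the match in capitals and AAA as its free bases. It lies at chr1:28975064-28975124 on the plus strand and its match starts 166 bases before the gene.
ADH1: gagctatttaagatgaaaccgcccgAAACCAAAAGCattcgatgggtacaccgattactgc
The shorter anaerobic response element AAACCA, which every HRPE contains, was found upstream of ADH1, PDC1, SUS1, LBD41 and PCO2, 5 of 10 members, against 47.1% of all windows. The GCC box GCCGCC was found in 0 of 10 members against 4.31% of windows, and the G-box CACGTG in 2 of 10, again ADH1 and LBD41, against 10.1%. A match is a run of letters only and does not show binding.

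Expression was compared as CPM, the reads of a gene scaled to all counted reads of its library, which the authors averaged over the libraries of each group. The low values of these means are sums of whole reads of 3 libraries, and gave back the size of each library, from 28472236 to 33512708 counted reads. Where a mean could be made up of whole reads of the 3 libraries in only 1 way, the values of the single libraries were recovered from it. This was so in all 4 groups for 39.3% of genes, and for the members HRE2, SUS4 and ACO1. PCO1 and PCO2 were recovered in some groups only under the assumption that every library lies within 2-fold of the group mean. SUS4 broke that limit in DMSO and in Stress + Pakerine, so the assumption is not safe for every gene. Libraries are numbered 1 to 3 from the largest to the smallest within a group, and these numbers are not the replicate numbers of the labels. ADH1, PDC1, SUS1, HB1 and LBD41 have too many reads to be recovered in every group. They are described by the authors' means, with a 95% counting interval of the ratio that covers counting error and no variation between plants.

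Per kilobase of exon, HB1 was the most abundant member in every group, with the authors' mean at 61.6 CPM per kb in DMSO, followed by LBD41 at 47.4 and ADH1 at 27.4. SUS4, at 0.811 CPM per kb, and HRE2, at 1.12 CPM per kb, were the scarcest in DMSO. The mean CPM of the 10 members summed to 299.9 for DMSO, 249.3 for Stress, 211.5 for Pakerine and 234.3 for Stress + Pakerine. Of the 10 members, 7 had their highest mean in DMSO, whereas ADH1 was highest in Stress, ACO1 in Pakerine and SUS4 in Stress + Pakerine. The lowest mean was that of Pakerine for 5 members, ADH1, PDC1, HB1, LBD41 and PCO1. It was that of Stress for SUS4, HRE2 and ACO1, and that of Stress + Pakerine for SUS1 and PCO2. In these bulk samples, fewer cells of a type and less RNA per cell cannot be told apart.

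**Figure D1:**
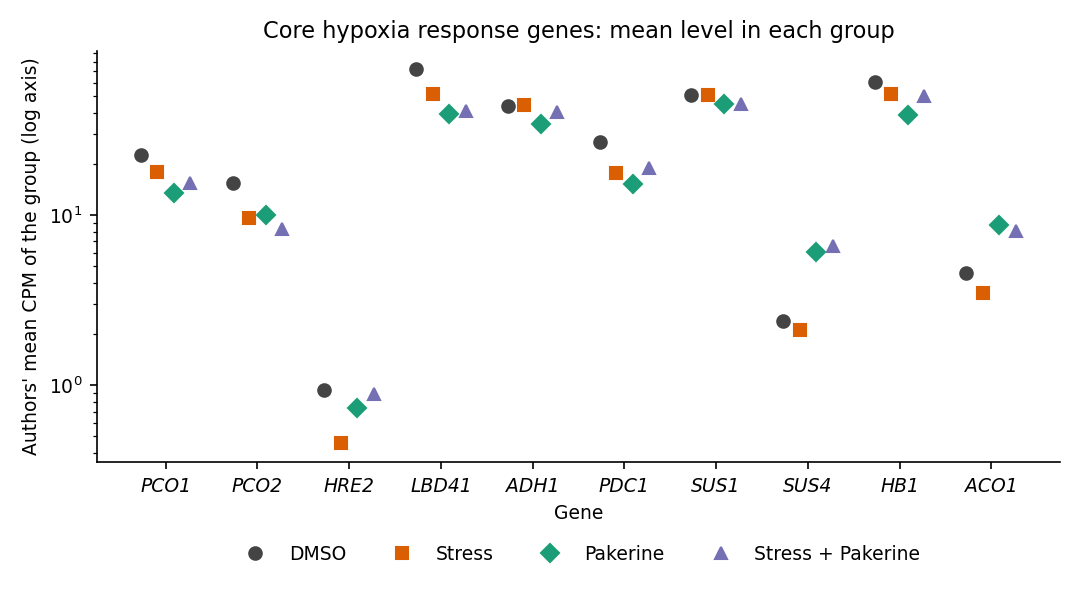
The authors' mean CPM of each group (vertical log axis) for the 10 genes (horizontal axis), with 1 marker per group and no error, since a mean is a single deposited value. Most genes sit highest in DMSO, while SUS4 and ACO1 sit higher in both groups with pakerine than in both without.

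The 2 days of stress, in sealed plates with 24 h of light per day, did not come with higher levels of these low-oxygen markers as a set. In stressed against non-stressed mock-treated plants, 9 of 10 members had a log2 ratio of mean CPM below 0, against 57.3% of the 21609 genes that averaged at least 0.12 CPM. The exception was ADH1, at 0.02, and SUS1 was just below 0, at -0.0038, which turned to 0.06 when the ratios were centred on the median gene. The members' median was -0.36, that of all genes -0.07, and none of the members reached a 2-fold difference, which 7.3% of all genes did. All ratios used a pseudocount of 0.1 CPM, which understates differences of scarce genes. HRE2 had the lowest ratio, -0.90, or -0.59 with a pseudocount of 0.5 CPM, followed by PCO2 at -0.68 and PDC1 at -0.60. These were the 3 of 10 members at 1.5-fold or more, against 20.5% of all genes. Without DMSO library 2, the ratio of HRE2 was -1.09.

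Pakerine in non-stressed plants split the set. Against the same DMSO libraries, 8 of 10 members were lower, at a median of -0.49 over the members, whereas SUS4 and ACO1 were higher. A ratio below 0 was found for 54.0% of all genes, whose median was -0.02. SUS4, at 1.32, was the only member with a difference of 2-fold or more, which 5.16% of all genes had. LBD41 at -0.88, PDC1 at -0.81 and PCO1 at -0.74 had the lowest ratios. At 1.5-fold or more were 7 of 10 members, against 11.7% of all genes, namely these 3, HB1 and PCO2 below 0 and SUS4 and ACO1 above. The ratio of SUS4 was 0.95 without DMSO library 2, and that of ACO1 was 1.20 without DMSO library 1 and 1.14 without Pakerine library 3.

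Within the stressed plants, pakerine again went with more SUS4 and ACO1, which were 3.06-fold and 2.29-fold higher in the means of Stress + Pakerine than in Stress. These were the 2 members with at least a 2-fold difference, against 5.22% of all genes, and 6 of 10 members had a ratio below 0, against 46.5%. Both were under 2-fold without Stress + Pakerine library 1, with SUS4 at 0.70 and ACO1 at 0.94. With HRE2, 3 of 10 members were at 1.5-fold or more, against 11.2%. Within the pakerine-treated plants, stress left none of the members 2-fold apart, against 6.36% of all genes, or 1.5-fold apart, against 17.0%, and only SUS1, PCO2 and ACO1, 3 of 10 members, were below 0, against 54.1%. Without Pakerine library 3, PCO1 and SUS4 were also below 0, which made 5. Stress + Pakerine against DMSO had 8 of 10 members below 0, against 52.4%, and 1 member, SUS4, at 2-fold or more, against 10.9%. SUS4 was at 1.43, but at 0.51 without Stress + Pakerine library 1, where PCO2 instead passed 2-fold. PCO2 also passed it without DMSO library 2, and ACO1 without DMSO library 1 or Stress + Pakerine library 2. The lowest ratios of this comparison were -0.89 for PCO2 and -0.82 for LBD41, which with SUS4 and ACO1 made 4 of 10 members at 1.5-fold or more, against 24.2%. The comparisons of Stress, Pakerine and Stress + Pakerine with DMSO share the DMSO libraries, and each also shares a group with the other comparisons.

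**Figure D2:**
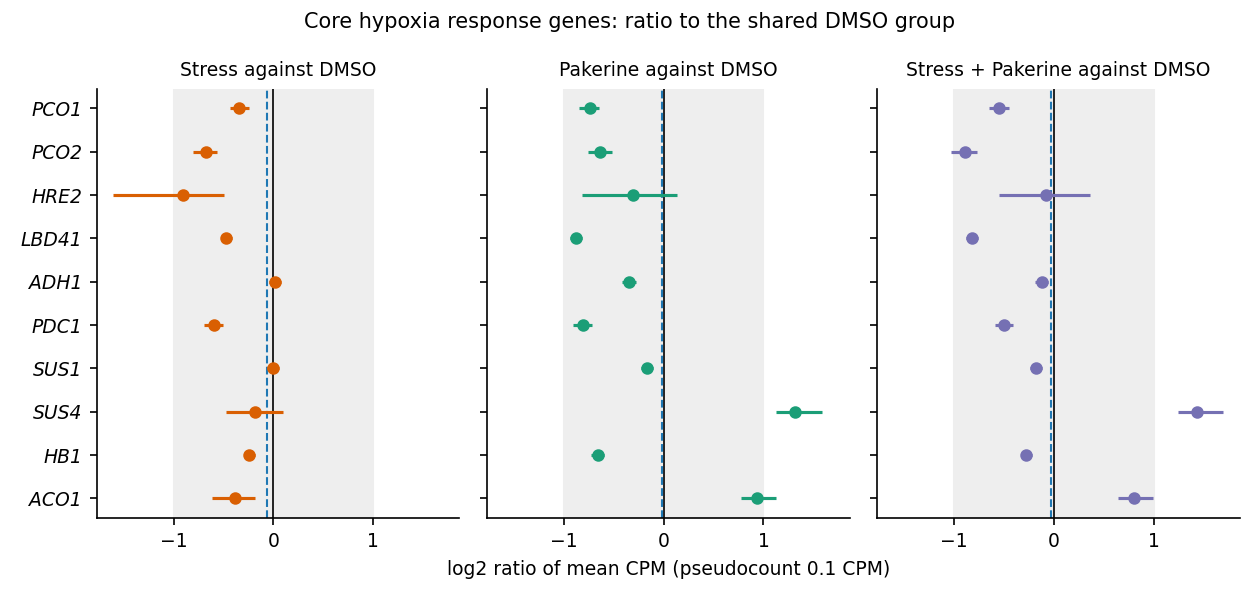
The log2 ratio of mean CPM against DMSO (horizontal axis) for the 10 genes in 3 comparisons, with bars for the 95% counting interval, grey for differences under 2-fold and a dashed line at the median of all genes. SUS4 lies outside the grey band with pakerine and with both treatments, at 1.32 and 1.43, and ACO1 lies right of 0 in the same panels.

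The single libraries allowed a test for 3 members with unambiguous libraries and, under the 2-fold assumption, for PCO1 and PCO2. Here limma was fitted to log2(CPM + 0.5) of all 12 libraries, a test chosen after seeing the data, over the 8336 or 9671 genes so recovered, with Benjamini-Hochberg adjustment over all of them. These genes are mostly of low abundance. A gene is said to have risen or fallen at an adjusted p of at most 0.05. In the first fit, 27.1% of genes passed for stress, 18.2% for pakerine, 21.5% for stress with pakerine, 18.2% for pakerine under stress and 39.7% for both treatments against DMSO. Of the 3 members, 1 passed for stress, 2 for pakerine, 0 for stress with pakerine, 1 for pakerine under stress and 2 for both treatments. For the 0 there, the unadjusted p was also above 0.05 for each of the 3, the lowest being 0.363 for HRE2. In the larger fit 2 of 5 members passed for stress, against 30.9% of genes, 3 for pakerine, against 16.8%, and 4 for both treatments, against 41.8%. The 3 samples of a group are called biological replicates and not described further, so the p-values measure the spread between these samples, which may in part be technical.

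PCO1 and PCO2, the oxygen-dependent oxidases that tag ERF-VIIs for breakdown, were both most abundant in DMSO. PCO1 (AT5G15120, chr5:4898641-4900734) had 22.8, 17.3 and 27.6 CPM for the DMSO libraries, 15.2, 21.3 and 17.0 for Stress, 16.5, 14.9 and 8.96 for Pakerine and 17.3, 13.8 and 15.2 for Stress + Pakerine. The values of DMSO, Stress and Pakerine are those of the 2-fold assumption. Without it, the DMSO mean could also hold a library at 7.11 CPM and the Pakerine mean one at 29.2 or 38.4 CPM. With the assumed values, every Pakerine library lay below every DMSO library, while Stress overlapped with DMSO. PCO1 fell with pakerine, with a log2 fold change of -0.74 ± 0.19 (SE, n = 3 per group, limma, adjusted p = 0.0130), but this was lost without DMSO library 3 (adjusted p = 0.0744) or Pakerine library 3 (adjusted p = 0.0682). With both treatments it was -0.51 ± 0.19 (SE, limma, adjusted p = 0.0420), which was lost without DMSO library 1 (0.0981) or 3 (0.186), Stress + Pakerine library 2 (0.116) or 3 (0.0939) or Stress library 3 (0.0511). For stress alone it was -0.32 ± 0.19 (limma, adjusted p = 0.223).

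PCO2 (AT5G39890, chr5:15974270-15976270) had 16.0, 12.3 and 18.2 CPM for DMSO, 9.21, 10.9 and 8.85 for Stress, 11.6, 11.7 and 6.55 for Pakerine and 9.96, 6.78 and 8.22 for Stress + Pakerine. The DMSO values are those of the 2-fold assumption, since 3 splits made up this mean and the other two have a library at 0.295 or 3.25 CPM. With the assumed values, the DMSO libraries lay above all 9 others, which the other two splits would not give. The spread in the tests of PCO1 and PCO2 rests on the same assumption. With both treatments PCO2 fell by 0.86 ± 0.19 on the log2 scale (SE, n = 3 per group, limma, adjusted p = 0.00215), and this held without any 1 library, with an adjusted p of at most 0.0136. It also fell with stress, by 0.64 ± 0.19 (limma, adjusted p = 0.0179), and with pakerine, by 0.64 ± 0.19 (limma, adjusted p = 0.0298). The call for stress was lost without DMSO library 1 (adjusted p = 0.0579) or 3 (0.0865) or Stress library 1 (0.0512) or 3 (0.0634), and that for pakerine without DMSO library 1 (0.0875) or 3 (0.131) or Pakerine library 3 (0.154).

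HRE2 (AT2G47520, chr2:19502776-19503702), an ERF-VII factor that is itself induced by low oxygen, was scarce. Its libraries had 1.15, 0.656 and 1.02 CPM for DMSO, 0.480, 0.493 and 0.395 for Stress, 0.865, 0.871 and 0.483 for Pakerine and 0.888, 0.747 and 1.01 for Stress + Pakerine, which in Stress stood for 16, 15 and 12 reads. The Stress libraries lay below all DMSO and Stress + Pakerine libraries and overlapped only with Pakerine. HRE2 fell with stress, by 0.58 ± 0.18 on the log2 scale (SE, n = 3 per group, limma, adjusted p = 0.0251), and the call was lost without DMSO library 1 (adjusted p = 0.107) or 3 (0.0797) or Stress library 3 (0.0821). Under stress, pakerine gave 0.53 ± 0.18 (limma, adjusted p = 0.0515). The difference between its stress effects with and without pakerine was 0.75 ± 0.26 (SE, limma, adjusted p = 0.397).

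LBD41 (AT3G02550, chr3:536500-538126), a transcription factor gene of the LATERAL ORGAN BOUNDARIES family, has a match to the loose HRPE pattern upstream. The authors' means were 71.8 CPM for DMSO, 51.8 for Stress, 39.1 for Pakerine and 40.7 for Stress + Pakerine. DMSO was thus above the other groups, and both groups with pakerine were close to each other. The log2 ratio was -0.47 for stress (95% counting interval from -0.53 to -0.42), -0.88 for pakerine (from -0.94 to -0.82) and 0.06 for stress with pakerine (from -0.01 to 0.12).

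ADH1 (AT1G77120, chr1:28975255-28977417), the alcohol dehydrogenase that reduces acetaldehyde to ethanol, has the other match to the loose HRPE pattern upstream. ADH1 differed little between the groups. The authors' means were 43.7 CPM for DMSO, 44.2 for Stress, 34.4 for Pakerine and 40.2 for Stress + Pakerine. The Pakerine mean was the lowest, with a log2 ratio to DMSO of -0.34 (95% counting interval from -0.41 to -0.28), while that for stress was 0.02 (from -0.05 to 0.08). The end of ADH1 overlaps AT1G77122 on the opposite strand, and whether reads were counted by strand is not given in the sources used here. Reads in that overlap cannot be told apart, and AT1G77122 had a log2 ratio of -0.16 for stress and -0.10 for pakerine.

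PDC1 (AT4G33070, chr4:15952257-15954803), the pyruvate decarboxylase that precedes ADH1 in fermentation, was lower than in DMSO in all 3 other groups. The authors' means were 26.8 CPM for DMSO, 17.7 for Stress, 15.2 for Pakerine and 19.0 for Stress + Pakerine. Its Stress + Pakerine libraries had 26.5, 14.2 and 16.3 CPM, and its DMSO libraries, under the 2-fold assumption, 28.1, 21.0 and 31.3 CPM, so these groups overlapped. The log2 ratio was -0.60 for stress (95% counting interval from -0.69 to -0.51), -0.81 for pakerine (from -0.91 to -0.72) and 0.32 for stress with pakerine (from 0.22 to 0.42). PDC2, another pyruvate decarboxylase, had another pattern, with authors' means of 111.4 CPM for DMSO, 166.0 for Stress, 80.8 for Pakerine and 152.0 for Stress + Pakerine.

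The sucrose synthases, which split sucrose at a lower energy cost than invertase, behaved in different ways. SUS1 (AT5G20830, chr5:7050217-7055398) was the steadiest member, with the authors' means at 50.7 CPM for DMSO, 50.6 for Stress, 45.2 for Pakerine and 44.7 for Stress + Pakerine. Its log2 ratio for pakerine was -0.17 (95% counting interval from -0.23 to -0.10).

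SUS4 (AT3G43190, chr3:15179010-15184105) had 3.31, 0.952 and 2.92 CPM for DMSO, 2.25, 2.3 and 1.74 for Stress, 8.09, 6.47 and 3.76 for Pakerine and 12.9, 2.49 and 4.43 for Stress + Pakerine. All Pakerine libraries exceeded all DMSO libraries, while Stress + Pakerine spread over 5.55 CPM (SD, n = 3) and overlapped with DMSO. With pakerine, SUS4 rose by a log2 fold change of 1.25 ± 0.41 (SE, n = 3 per group, limma, adjusted p = 0.0415), but its adjusted p was 0.0565 in the larger fit. The call was also lost without DMSO library 2 (adjusted p = 0.231), Pakerine library 1 (0.165) or 2 (0.133) or Stress + Pakerine library 3 (0.0515). With both treatments it rose by 1.13 ± 0.41 (limma, adjusted p = 0.0360), which was lost without DMSO library 2 (0.198) or Stress + Pakerine library 1 (0.255) or 3 (0.0526). Under stress, pakerine gave 1.17 ± 0.41 (limma, adjusted p = 0.0565). The ratio of the means there was 1.61 and dropped to 0.70 without Stress + Pakerine library 1.

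HB1 (AT2G16060, chr2:6982531-6983777), a non-symbiotic haemoglobin that scavenges nitric oxide under low oxygen, had authors' means of 60.9 CPM for DMSO, 51.6 for Stress, 38.5 for Pakerine and 50.4 for Stress + Pakerine. The Pakerine mean was the lowest and the DMSO mean the highest. The log2 ratio was -0.66 for pakerine (95% counting interval from -0.72 to -0.60), -0.24 for stress (from -0.30 to -0.18) and 0.39 for stress with pakerine (from 0.32 to 0.45).

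ACO1 (AT2G19590, chr2:8475276-8477733), an oxidase that makes ethylene from ACC, had 6.13, 3.31 and 4.25 CPM for DMSO, 3.09, 3.71 and 3.59 for Stress, 10.7, 9.68 and 6.03 for Pakerine and 10.8, 5.35 and 8.09 for Stress + Pakerine. All Stress + Pakerine libraries lay above all Stress libraries, whereas the lowest Pakerine library, 6.03 CPM, overlapped with the highest DMSO library, 6.13 CPM. Under stress, ACO1 was higher with pakerine and rose by 1.06 ± 0.23 on the log2 scale (SE, n = 3 per group, limma, adjusted p = 0.00277), and this held without any 1 library, with an adjusted p of at most 0.0205. Without stress it rose by 0.88 ± 0.23 (limma, adjusted p = 0.0109), lost without DMSO library 2 (0.0684) or Pakerine library 1 (0.0660) or 2 (0.0594). With both treatments it rose by 0.75 ± 0.23 (limma, adjusted p = 0.0147), lost without DMSO library 2 (0.0825) or Stress + Pakerine library 1 (0.0953). Stress alone gave -0.32 ± 0.23 (limma, adjusted p = 0.326).

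**Figure D3:**
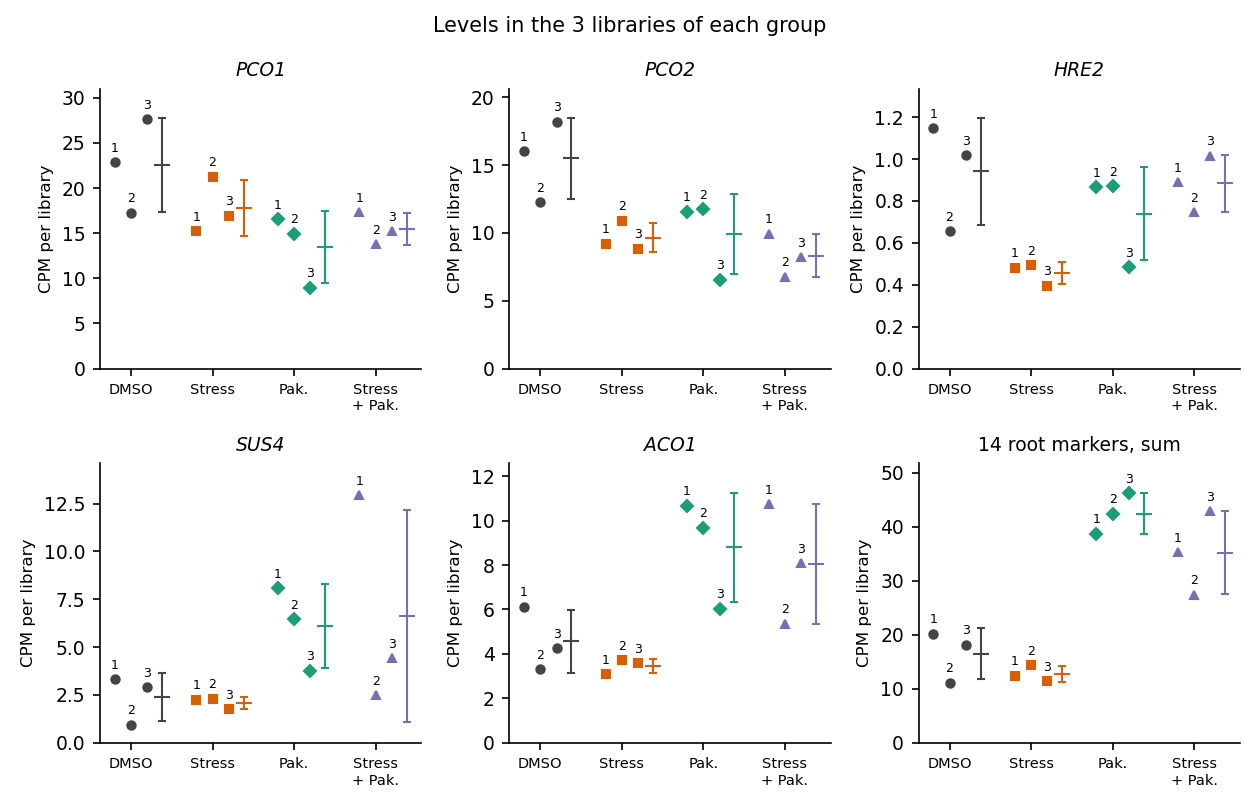
CPM (vertical axes, from 0) in libraries 1 to 3 of each group for the 5 genes whose libraries were recovered and for the sum of 14 root markers, with the mean ± SD (n = 3) beside each group and Pak. for pakerine. The PCO2 points of DMSO, which rest on the 2-fold assumption, lie above all others, ACO1 and the root markers are high with pakerine, and DMSO library 2 is low for all 5 genes and for the root markers.

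Markers of root cells moved with pakerine in the same leaf samples, as SUS4 and ACO1 did. Of 20 root markers, 14 had at least 2-fold higher means with pakerine, against 5.16% of all genes at 2-fold in either direction. The summed mean of all 20 was 105.1 CPM for DMSO, 87.5 for Stress, 212.1 for Pakerine and 185.1 for Stress + Pakerine. SCR alone made up 44.0 CPM of the sum for DMSO and 45.3 of that for Pakerine. Of the 13 markers in the first limma fit, which left out NRT2.1 for its low mean, 11 rose with pakerine, where 18.2% of genes passed. An example was EXPA7, an expansin of root hairs (log2 fold change 1.64 ± 0.30, limma, adjusted p = 0.000976). The 14 markers with recovered libraries summed to 20.2, 11.1 and 18.2 CPM in DMSO and to 38.7, 42.5 and 46.2 in Pakerine. They summed to 12.4, 14.3 and 11.4 CPM in Stress and to 35.3, 27.5 and 42.9 in Stress + Pakerine. DMSO library 2 was lowest for these markers and for all 5 members recovered, under the 2-fold assumption for PCO1 and PCO2. Pakerine library 3 was lowest for those 5 members and highest for the markers. Among the root markers with a mean of at least 1 CPM, RHS19, PRP3 and EXPA7 had the highest ratios for pakerine, from 1.76 to 1.88, while WOX5, SCR and SHR had the lowest, from -0.87 to 0.16. For stress the ratios ran from -1.33 for PIN2, -0.87 for COBL9 and -0.74 for EXPA7 to -0.22 for PER64, 0.11 for SCR and 0.25 for WOX5. None of the markers was at 0 in any group. NRT2.1, a nitrate transporter of roots, had a mean of 0.022 CPM in DMSO and 0.010 CPM in Pakerine. The part of root RNA in the levels of the members was not tested.

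Levels of 10 leaf markers were also read, which cannot show whether the samples held leaf only. The summed means of these markers ranged from 19690 CPM in DMSO to 25880 CPM in Stress + Pakerine. For stress, their ratios ran from -0.17 for PSBO1, -0.03 for PSAD1 and 0.02 for RBCS1A to 0.68 for RCA, 0.69 for LHCB2.1 and 1.39 for GLDP1. For pakerine they ran from -1.23 for LHCB1.1, -1.09 for LHCB2.1 and 0.00 for PSAD1 to 0.38 for PRK, 0.45 for GOX1 and 0.56 for GLDP1. Of 7 reference genes none reached a 2-fold ratio. They ran for stress from -0.13 for PP2AA3, -0.11 for UBC21 and -0.11 for EF1A to 0.02 for SAND, 0.07 for TIP41 and 0.50 for UBQ10, and for pakerine from -0.15 for TIP41, -0.11 for UBQ10 and -0.09 for UBC21 to 0.01 for SAND, 0.04 for EF1A and 0.13 for ACT2.

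The regulators upstream of the members were read next. Of 13 genes of the N-degron pathway and the ERF-VII factors, 6 had a ratio below 0 for stress, against 57.3% of all genes. For pakerine 10 did, against 54.0%. The medians of the list were 0.09 for stress and -0.07 for pakerine. HRA1, a trihelix factor that is induced by RAP2.12 and restrains it, stood apart with means of 27.4 CPM for DMSO, 7.76 for Stress, 14.2 for Pakerine and 7.63 for Stress + Pakerine. Its ratio of -1.81 for stress was the only one of this list at 2-fold or more, against 7.3% of all genes. The constitutive ERF-VII gene RAP2.12 had a ratio of 0.34 for stress and -0.09 for pakerine. HRE1, the other ERF-VII gene induced by low oxygen and the only gene of the list in the first limma fit, rose with stress by 0.60 ± 0.21 (SE, n = 3 per group, limma, adjusted p = 0.0400), while its value for pakerine was 0.44 ± 0.21 (limma, adjusted p = 0.174). ATE2 and PCO5 followed HRA1 at the low end for both treatments, at -0.40 and -0.25 for stress and -0.19 and -0.23 for pakerine. At the high end, ACBP2 had 0.40 for stress, and PCO3 and RAP2.3 had 0.13 and 0.09 for pakerine.

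The other 9 genes of fermentation and anaerobic metabolism had a median of 0.27 for stress and -0.05 for pakerine. Below 0 were 3 for stress, against 57.3% of all genes, and 6 for pakerine, against 54.0%. GAD4, a glutamate decarboxylase of GABA synthesis, had means of 3.20 CPM for DMSO, 7.83 for Stress, 3.04 for Pakerine and 14.3 for Stress + Pakerine. Its ratio of 1.26 for stress was the only one at 2-fold or more, against 7.3% of all genes. GAD1 was at 0.47 for stress and 0.36 for pakerine. ALAAT1 and ALAAT2, the alanine aminotransferases, were at -0.41 and -0.42 for pakerine and at 0.27 and -0.28 for stress. LDH, the lactate dehydrogenase, was at -0.14 for stress and 0.03 for pakerine, PFK6 at -0.01 for stress and ALDH2B7 at 0.32 for pakerine. None of the 9 had libraries recovered in all groups.

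A further 27 genes known to be induced by low oxygen had medians of -0.30 for stress and -0.29 for pakerine. Below 0 were 17 for stress, against 57.3% of all genes, and 18 for pakerine, against 54.0%. At 2-fold or more, 1 was higher and 2 were lower for stress, against 7.3% of all genes in either direction. For pakerine 1 was higher and 1 lower, against 5.16%. Of the 15 in the first limma fit, 2 rose and 5 fell with stress and 8 did not pass, and 1 rose and 3 fell with pakerine and 11 did not pass. In that fit 27.1% of genes passed for stress and 18.2% for pakerine. SAD6, a stearoyl-ACP desaturase, had means of 5.77 CPM for DMSO, 2.18 for Stress, 7.75 for Pakerine and 7.90 for Stress + Pakerine, and had the lowest ratio for stress, -1.37, and the highest for pakerine, 0.42, among those averaging at least 1 CPM. AT1G33055 and AT3G27220 followed for stress, at -1.19 and -0.90. At the high end for stress were AT4G17670 at 0.96, AT3G23170 at 0.64 and AT4G33560 at 0.32. For pakerine, AT4G10270 was lowest, at -1.01, and fell in limma with stress as well, by 0.83 ± 0.17 (SE, n = 3 per group, adjusted p = 0.00171), and with pakerine by 0.99 ± 0.17 (SE, n = 3 per group, adjusted p = 0.000783). CML38, a calmodulin-like protein, was at -0.90 and HSFA2, a heat shock factor, at -0.84, while AT5G42200 and AT3G23170 were at 0.23 and 0.20. Neither CML38 (adjusted p = 0.0733) nor HSFA2 (adjusted p = 0.0993) passed for pakerine in the first limma fit.

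**Figure D4:**
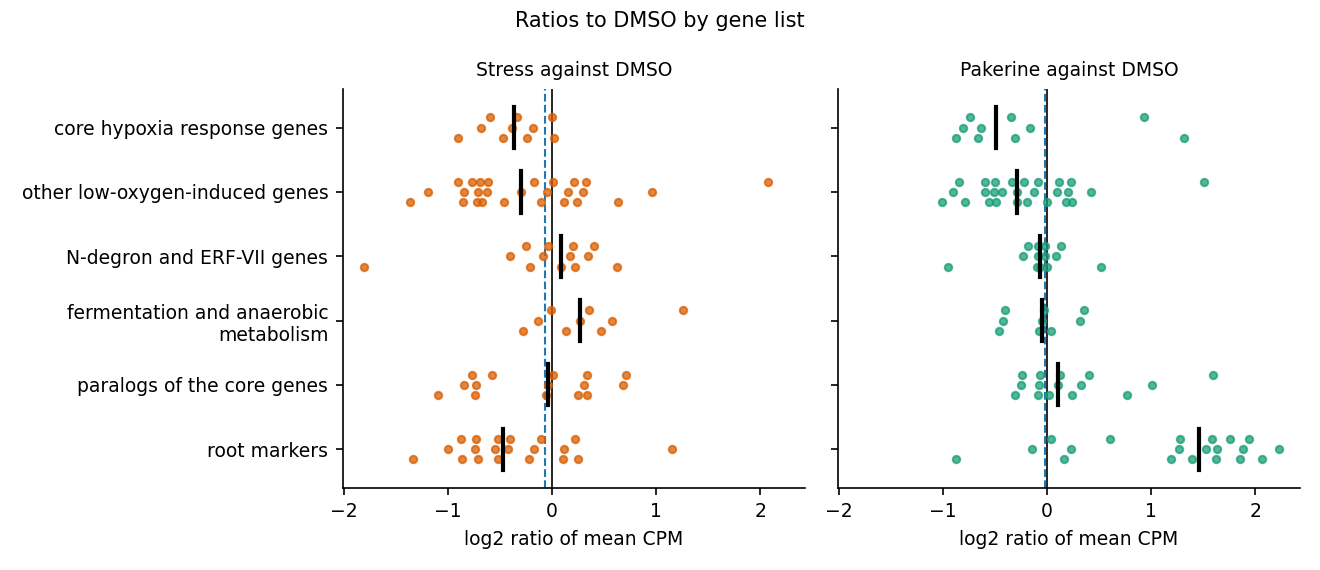
The log2 ratio of mean CPM for stress and for pakerine (horizontal axes), with 1 point per gene, a bar at the median of each list and a dashed line at the median of all genes. The core hypoxia response genes and the other low-oxygen-induced genes have medians from -0.49 to -0.29, and the root markers have medians of -0.47 for stress and 1.46 for pakerine.

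Of 16 paralogs of the members listed, 15 were measured. None of the members shares an exact stretch of 75 bases, the read length, with another gene in the RefSeq transcripts. The paralogs' medians were -0.04 for stress and 0.11 for pakerine. Of the ACC oxidases, ACO5 and ACO3 had ratios for pakerine of 1.60 and 1.01. These were the 2 highest of the list and the only ones at 2-fold or more, against 5.16% of all genes. Their ratios for stress were -0.77 and -0.73. ACO1 had the same signs as both. SUS3 was at 0.71 and SUS2 at -0.73 for stress, and SUS6 and SUS2 were at 0.33 and -0.24 for pakerine. PDC4 was at 0.69 for stress and -0.31 for pakerine, HB2 at 0.34 for stress and ACO4 at -0.25 for pakerine. Of the 5 paralogs in the first limma fit, 1 rose and 2 fell with stress, where 27.1% of genes passed. With pakerine 1 rose, where 18.2% of genes passed. PDC3 was the one that rose, by 0.48 ± 0.17 (SE, n = 3 per group, limma, adjusted p = 0.0490), with a mean of only 0.406 CPM in DMSO, but its adjusted p was 0.0507 in the larger fit.

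Pakerine and stress together were compared with the sum of both alone. The difference between the log2 ratios for stress with and without pakerine was above 0 for 9 of 10 members and below 0 for SUS1 alone, against 43.5% of all genes below 0, with a median of 0.48 over the members and 0.03 over all genes. HRE2, at 1.13, was the only member at 2-fold or more, against 1.89% of all genes, and it was at 0.75 with a pseudocount of 0.5 CPM. PDC1 followed at 0.91 and HB1 at 0.63, which made 3 of 10 members at 1.5-fold or more, against 7.45%. HRE2 was at 0.98 without DMSO library 1 and at 0.93 without Pakerine library 3. SUS4 was also below 0 without Stress + Pakerine library 1, and ACO1 without DMSO library 1. In the first limma fit 0.036% of genes passed for this difference and 0 of the 3 members did, while HRE2 alone had an unadjusted p below 0.05, of 0.00962. The DMSO mean enters this difference as well as both comparisons with DMSO.

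The genes nearest to a member in their ratios of Stress, Pakerine and Stress + Pakerine against DMSO, among 18658 genes averaging at least 1 CPM, were found by Euclidean distance over these 3 ratios. For ADH1 they were AT3G20650, AT5G49530 and POLD4, a subunit of DNA polymerase delta, at distances of 0.0396 to 0.0586. For PCO1 they were chr31, AT5G03495 and AT5G59660, at 0.0651 to 0.124, and for SUS4 AT1G59780, AT4G15390 and AT5G61550, at 0.115 to 0.131. None of these 9 genes was in the lists above.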

How the data were processed

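Leaf RNA of 12 cat2-2 samples in 4 groups was sequenced by the authors with single-end reads of 75 bases. According to the methods and the submitters' processing notes, reads were trimmed with Trim Galore 0.3.3, aligned to TAIR10 with TopHat2 2.1.0 and counted with featureCounts of Subread 1.4.6, without rRNA, tRNA and other RNA genes, and genes above 0.12 CPM in at least 3 samples were kept. The deposited values are CPM that the authors averaged per group, in 4 columns, without scaling factors. The 19 columns of the authors' own comparisons (log2 fold changes, p-values, false discovery rates and calls) were not used, and 21731 of 21882 genes matched RefSeq.

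Splitting a mean into libraries covered less than the 80% of genes required for a test, so the main comparison is the log2 ratio of means (pseudocount 0.1 CPM, mean of at least 0.12 CPM, 2-fold for a call) without a test. limma 3.58.1 in R 4.3.3 on recovered libraries (trend, all groups) was added after seeing the data. Both steps were tested on simulated data. Counting intervals are exact binomial (Clopper-Pearson) intervals at 95%, on reads estimated from the means. Reads are not independent molecules after PCR, so these intervals cover counting error only. Depth differed little between libraries.

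The members and lists were chosen with earlier results of these data known. From each list, the 3 genes with the highest and the 3 with the lowest ratio for stress and for pakerine were named. These were taken from genes averaging at least 1 CPM. Also named were all members and the 3 nearest genes of ADH1, PCO1 and SUS4. Others were named for their values after these were seen (AT1G77122, NRT2.1, PDC3, AT3G29970). Alternatives were other pseudocounts (0.5 and 1 CPM), median centring, trimmed mean factors, a mean of at least 1 CPM, no filter, a 1.5-fold threshold and leaving out each library. Python 3.11.15 with numpy 2.4.6, pandas 2.3.3, scipy 1.17.1, numba 0.67.0 and matplotlib 3.10.9 was used.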

Additional observations from a re-analysis of the deposited data

How the results depend on the processing

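The ratio without a test was the main comparison and so is not among the alternatives. No paired analysis was possible because the recovered libraries carry no replicate number. With a 1.5-fold in place of a 2-fold threshold, the members called numbered 3 of 10 for stress in place of 0 (20.5% of all genes), 7 for pakerine in place of 1 (11.7%), 4 for both treatments against DMSO in place of 1 (24.2%), and 3 for the difference between the stress effects in place of 1 (7.45%). That difference had 0 members at 2-fold or more with a pseudocount of 0.5 or 1 CPM and among genes averaging at least 1 CPM, which leaves HRE2 out. The counts of members below 0 stayed within 1.5 times of the reported ones under the other pseudocounts, scalings and filters. Trimmed mean factors were -0.07 (Stress), -0.01 (Pakerine) and -0.01 (Stress + Pakerine) on the log2 scale, and no scaling shifted the median gene by over 0.1. Leaving out 1 library at a time could be done for the 5 recovered members, with the others kept at their means and with PCO1 and PCO2 under the 2-fold assumption. The members at 2-fold or more then numbered 0 to 1 for stress, 0 to 2 for pakerine, 0 to 2 for pakerine under stress, 1 to 2 for both treatments and 0 to 1 for the difference. The members below 0 numbered 2 to 5 for stress with pakerine, in place of 3, and 1 to 2 for the difference, in place of 1. None of the ratios of SUS4 and ACO1 at 2-fold or more changed sign, while the difference between the SUS4 stress effects, at 0.30, ran from -0.62 (without Stress + Pakerine library 1) to 0.68. SUS4 ran from 0.95 to 1.61 for pakerine, from 0.70 to 2.00 for pakerine under stress and from 0.51 to 1.82 for both treatments, and ACO1 from 0.94 to 1.42 for pakerine under stress. Members with a few reads, HRE2 above all, are limited by depth, and the abundant members by means that could not be split into libraries.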
